A study of Homo sapiens with 3 samples.

Results

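The genes described here are serpins, a family of protease inhibitors that share one fold. They were taken by gene symbol, as every transcript cluster whose single symbol was SERPIN followed by a clade letter from A to I and a number. The rule gave 25 genes of the 14410 genes with a symbol of their own on these exon arrays. Each had 1 such cluster, so no choice between clusters was made. Another 5 clusters that list a serpin together with a further symbol were not named, and SERPINA1, SERPINB2 and SERPINB6 are among 9 protein-coding serpins of the reference gene table that were not analysed here.

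An inhibitory serpin offers an exposed reactive centre loop as bait; the protease cuts it and is dragged across the serpin and trapped in a covalent complex, so each inhibitor is used up with its target. Clades other than B are mostly secreted and act on blood clotting, plasmin formation, complement and inflammation. Clade B serpins lack a classical signal peptide and mostly stay in the cell, where they protect it from granzymes and from proteases that leak out of granules or lysosomes. A few members inhibit no protease and act as hormone carriers, as a collagen chaperone or in other ways.

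RNA of 3 established human cell lines was measured, each on 1 array. The first, HT-29, is a colon adenocarcinoma line grown in McCoy's 5A with 10% fetal serum. It had received interferon gamma (IFN-γ) at 200 U/ml for 24 h and is called treated HT-29 from here on. MCF10A, a mammary epithelial line, was in DMEM/F12 that held 5% horse serum together with EGF (20 ng/ml), insulin (10 µg/ml), hydrocortisone (500 ng/ml) and cholera toxin (100 ng/ml). MDA-MB-436, a breast adenocarcinoma line, was in L-15 with 10% fetal serum. The labels name no IFN-γ for the mammary lines, and HT-29 without it was not analysed here. Line, medium and cytokine therefore cannot be told apart in any difference from HT-29. Between the mammary lines, which differed in medium, serum and added factors, line and medium cannot be told apart either. A single array per group gives no replicate spread and allows no test, which sets the limit on precision. An array reads the RNA of a whole culture, so fewer cells of a type and less RNA per cell cannot be told apart.

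Intensities are linear and in arbitrary units. A gene was taken as above background when its intensity exceeded 29.9, the 95th percentile of 228 olfactory receptor genes on these arrays. The median over all clusters was between 75.1 and 81 on the 3 arrays, and from 65% to 68.8% of genes were above background. A gene was counted as higher or lower when intensities differed at least 4-fold and the higher lay above background. A dimmer value under background was replaced by the background for the fold, which is then written "at least". Of the colon epithelium markers 7 of 8 were above background in HT-29, although CDX2 was at 74.8 there against 53.2 for MCF10A and 51.9 for MDA-MB-436, all under the highest olfactory receptor value of 101, and CDH17 was at 21.3. In HT-29, CDX1 (34.8) and GPA33 (67.7) were also under that olfactory receptor value. Of the 8 colon markers, 2 were above background in MCF10A and 3 in MDA-MB-436. All 4 measured basal mammary markers were above background in MCF10A, with 3 in HT-29 and 2 in MDA-MB-436. All 8 mesenchymal markers were above it in MDA-MB-436, with 7 in MCF10A and 2 in HT-29.

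Of the 25 serpins, 10 were above background in at least 1 line, a share of 40%, against 74.3% of all genes. The lines with a detected serpin differed from gene to gene. Treated HT-29 had 8 of the 25 above background, MCF10A 7 and MDA-MB-436 5. SERPINB1, SERPINB8, SERPINE2 and SERPINH1 were above background in all 3 lines. SERPING1 and SERPINB9 were detected in treated HT-29 alone, and SERPINB13 and SERPINB7 in MCF10A alone. SERPINA3 was above background in treated HT-29 and MDA-MB-436, and SERPINB5 in MCF10A and treated HT-29.

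**Figure D1:**
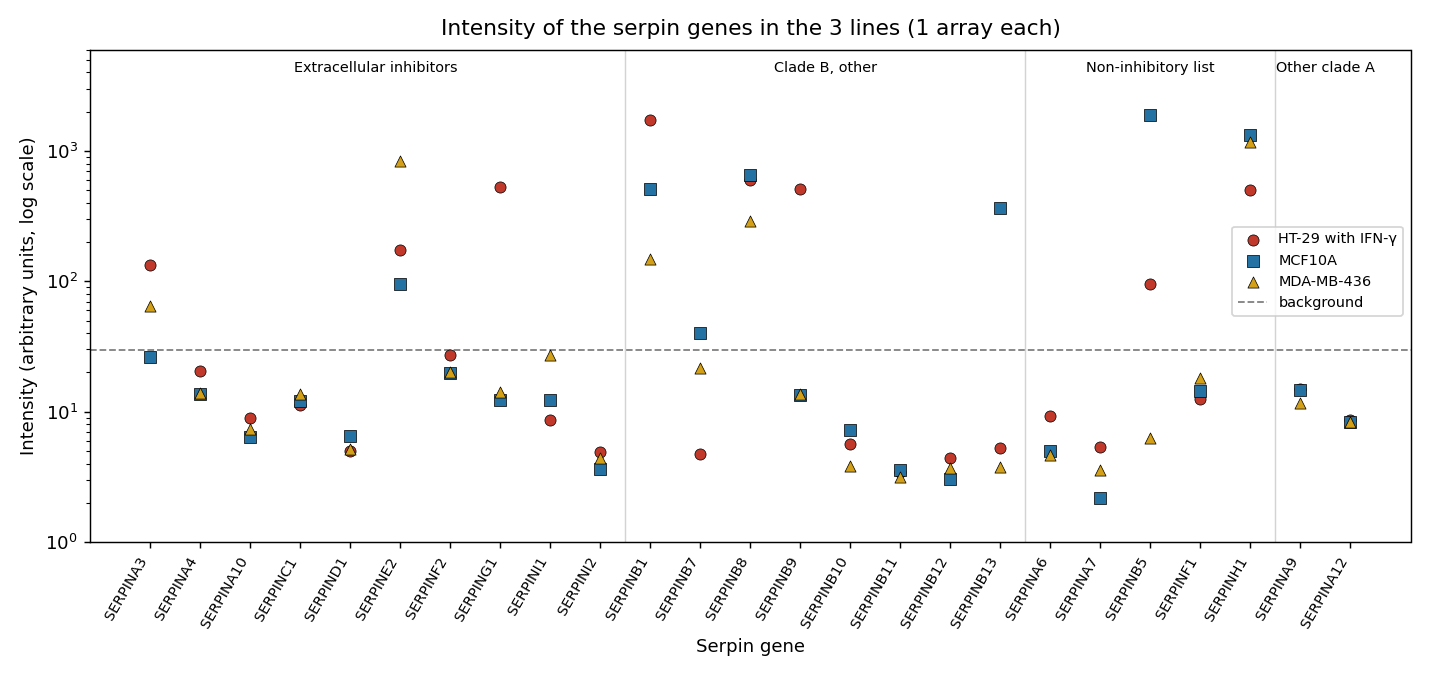
Intensity (arbitrary units, log axis) of the 25 serpin genes in treated HT-29 (circles), MCF10A (squares) and MDA-MB-436 (triangles), 1 array each, grouped by role; the dashed line is the background of 29.9. SERPING1 and SERPINB9 are far above it only in treated HT-29, and SERPINB13 only in MCF10A; heights of different genes cannot be set against each other, because their probes differ.

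Between the mammary lines, 1 serpin was at least 4-fold up in MDA-MB-436 relative to MCF10A (SERPINE2) and 2 were lower (SERPINB5 and SERPINB13); over all genes 3.65% were higher and 2.01% lower. From MCF10A to treated HT-29, 3 serpins were higher (SERPING1, SERPINB9 and SERPINA3) and 3 lower (SERPINB13, SERPINB5 and SERPINB7), beside 4.34% and 3.5% of all genes. Against MDA-MB-436, treated HT-29 had 4 serpins higher (SERPING1, SERPINB9, SERPINB5 and SERPINB1) and 1 lower (SERPINE2), beside 4.21% and 4.68% of all genes. These counts are small, and each of the 3 comparisons shares its arrays with the others.

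The median log2 difference over all 25 serpins was 0.0088 from MCF10A to MDA-MB-436, 0.044 from MCF10A to treated HT-29 and 0.35 from MDA-MB-436 to treated HT-29, against 0.018, 0.11 and 0.076 over all genes. Because 15 of the members were under background in every line, these medians mostly describe dim values. The first turned to -0.27 after quantile normalization and -0.10 after median centring, the second to -0.11 after quantile normalization, and with values under background set to it all 3 were 0. Over the 10 members above background in some line, the medians were -0.54, 0.37 and 1.04 in the same order, which describes a list trimmed by level and supports nothing.

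**Figure D2:**
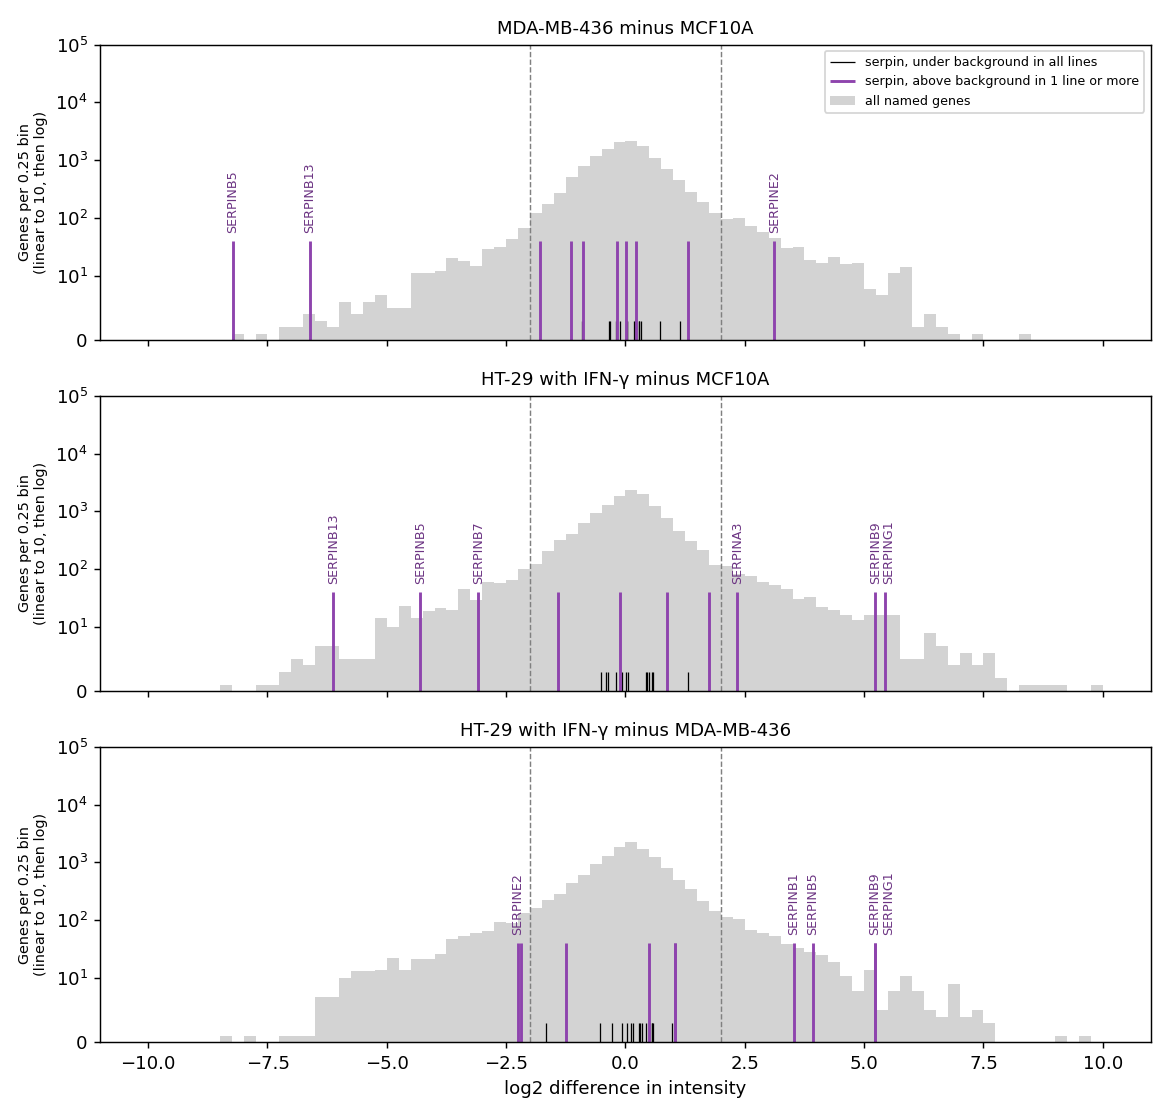
Histogram of log2 differences in intensity over all 14410 named genes (grey; the count axis is linear to 10 and logarithmic above), with the serpins as vertical lines, for the 3 comparisons; line heights carry no value, and dashed lines mark 4-fold. The 15 serpins under background in all lines (short black lines) lie between the dashed lines, and the named members lie beyond them, from SERPINB5 at -8.23 to SERPING1 at 5.45.

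Among the secreted inhibitors, SERPING1 and SERPINA3 were highest in treated HT-29 and SERPINE2 in MDA-MB-436. SERPING1 encodes C1 inhibitor, which inactivates the complement proteases C1r and C1s as well as plasma kallikrein and factor XII. Its intensity was 532 in treated HT-29, 12.2 for MCF10A and 14.2 for MDA-MB-436. Both mammary values are under background, so SERPING1 was at least 17.8-fold higher in treated HT-29 than in either mammary line. SERPING1 and SERPINB9 were the 2 serpins at least 4-fold above both other lines in treated HT-29, a pattern that 2.46% of all genes had.

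The targets of C1 inhibitor followed another order. C1R was at 111 in treated HT-29, 26.3 for MCF10A and 1910 for MDA-MB-436, and C1S at 150, 16.3 and 1723. MDA-MB-436 was thus highest for both protease genes while its SERPING1 value was under background. In treated HT-29 the inhibitor and both proteases were above background, and in MCF10A none of the 3 was. Of 7 measured complement proteases, 4 were at least 4-fold up in MDA-MB-436 relative to MCF10A and 0 lower (median log2 difference 4.002). For treated HT-29 the counts were 3 higher and 0 lower against MCF10A (median 0.38), and 0 higher and 3 lower against MDA-MB-436 (median -0.55). Over all genes, 3.65% were higher and 2.01% lower in the first of these comparisons (median 0.018). The shares were 4.34% and 3.5% in the second (median 0.11), and 4.21% and 4.68% in the third (median 0.076).

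SERPINA3 encodes alpha-1-antichymotrypsin, an acute-phase inhibitor of cathepsin G and chymase. It was at 133 in treated HT-29, 64.5 in MDA-MB-436 and 26.1 in MCF10A, where it was under background. Treated HT-29 was at least 4.44-fold higher than MCF10A and 2.06-fold higher than MDA-MB-436. The MDA-MB-436 value lay under the highest olfactory receptor value of 101. The 4-fold call against MCF10A was lost on the log2(intensity + 16) scale, where the difference was 1.82.

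SERPINE2 encodes protease nexin 1, a matrix-bound inhibitor of thrombin, urokinase and tissue plasminogen activator. Its intensity was 832 in MDA-MB-436, 174 in treated HT-29 and 95.8 in MCF10A, so all 3 lines were above background. The MCF10A value lay under the highest olfactory receptor value of 101. MDA-MB-436 was 8.69-fold above MCF10A and 4.79-fold above treated HT-29. It was the 1 serpin at least 4-fold above both other lines in MDA-MB-436, as were 2.16% of all genes.

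Among the targets of SERPINE2, the urokinase gene PLAU had the same highest line and the tissue plasminogen activator gene PLAT did not. PLAU was at 1026 in MDA-MB-436, 179 in MCF10A and 29.5 in treated HT-29, just under background. PLAT was at 552 in MCF10A, 119 in MDA-MB-436 and 24.3 in treated HT-29. The urokinase receptor gene PLAUR was above background in all lines, at 1997 in treated HT-29, 870 for MCF10A and 670 for MDA-MB-436. VLDLR, a receptor that takes up serpin-protease complexes, was at 273 in MDA-MB-436, 192 in treated HT-29 and 9.59 in MCF10A, and THBD, the thrombomodulin gene, at 274 in MCF10A, 35.6 in MDA-MB-436 and 21.9 in treated HT-29. Over the 19 measured genes of plasminogen activation, clotting and complex uptake, 2 were higher and 4 lower in MDA-MB-436 relative to MCF10A (median -0.11). Treated HT-29 had 1 higher and 4 lower against MCF10A (median 0.21), and 0 higher and 2 lower against MDA-MB-436 (median 0.15). For all genes the shares higher and lower were 3.65% and 2.01%, 4.34% and 3.5%, and 4.21% and 4.68%, in the same order.

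The other 7 inhibitory members outside clade B were under background in every line. They include the genes of antithrombin (SERPINC1), heparin cofactor II (SERPIND1), kallistatin (SERPINA4), the protein Z-dependent inhibitor (SERPINA10), pancpin (SERPINI2) and alpha-2-antiplasmin (SERPINF2), which are known mainly from liver, plasma or pancreas. SERPINF2 came closest in treated HT-29, at 27.1, with 19.8 for MCF10A and 20.1 for MDA-MB-436. SERPINI1, which encodes neuroserpin, an inhibitor of tissue plasminogen activator in neurons, was at 27.1 in MDA-MB-436, 12.2 in MCF10A and 8.56 in treated HT-29. Of 8 hepatocyte markers, 1 was above background in each line (APOA1), ALB was between 4.18 and 8.03, and the summed intensity ran from 115 to 139.

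Clade B had 8 members besides SERPINB5, of which 5 were above background in at least 1 line. SERPINB9 inhibits granzyme B and is known to shield cytotoxic lymphocytes and some tumour cells from it. SERPINB9 was at 509 in treated HT-29, 13.5 for MCF10A and 13.6 for MDA-MB-436. Treated HT-29 was at least 17-fold higher than either mammary line. Both mammary values lay under background, so they have no order.

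SERPINB1, an inhibitor of neutrophil elastase, proteinase 3 and cathepsin G, is the neighbour of SERPINB9 on chromosome 6. Its intensity was 1728 in treated HT-29, 514 for MCF10A and 149 for MDA-MB-436. Unlike SERPINB9 it was above background in every line, with steps of 3.36-fold and 3.44-fold that each missed the 4-fold threshold. Between the ends of that order the difference was 11.6-fold.

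HT-29 alone was given IFN-γ, and the 4 measured IFN-γ response genes fixed as a check, IRF1, CXCL10, CIITA and TAP1, were at least 4-fold higher there than in either mammary line. IRF1, a transcription factor induced by IFN-γ, was at 3961 in treated HT-29, 94.9 for MCF10A and 326 for MDA-MB-436. CXCL10 was at 2790, 5.28 and 229 in the same order, so MDA-MB-436 was at least 7.64-fold above MCF10A. Of these 4 genes, 3 were above background in MDA-MB-436 and 2 in MCF10A. The 8 colon markers also summed highest in treated HT-29, at 6289 against 491 for MCF10A and 191 for MDA-MB-436. The part of the cytokine or of colon identity in the levels of SERPING1, SERPINB9, SERPINB1 and SERPINA3 was not tested. SERPINB9 and SERPINB1 are also leukocyte genes. Of 6 measured leukocyte markers, 3 were above background in treated HT-29 and 2 in each mammary line, with summed intensities of 4693, 478 for MCF10A and 1317 for MDA-MB-436. Most of the HT-29 sum was LYZ at 4320, and PTPRC, the pan-leukocyte CD45 gene, was between 3.05 and 4.16 in all 3 lines.

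SERPINB8, which can inhibit the proprotein convertase furin, had the most even levels among these 5 genes. It was at 650 in MCF10A, 601 in treated HT-29 and 293 in MDA-MB-436. MDA-MB-436 was 2.22-fold below MCF10A and 2.05-fold below treated HT-29, and no comparison passed 4-fold. FURIN itself was at 296 in treated HT-29, 244 for MCF10A and 206 for MDA-MB-436.

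SERPINB13 and SERPINB7, which are known from stratified epithelium, were detected in MCF10A alone. SERPINB13, also called headpin or hurpin, inhibits lysosomal cathepsins of the cathepsin L group. It was at 366 in MCF10A, 5.25 in treated HT-29 and 3.74 in MDA-MB-436. MCF10A was at least 12.2-fold above both. SERPINB7, or megsin, was at 40.3 in MCF10A, 21.7 in MDA-MB-436 and 4.76 in treated HT-29. Its measured difference between MCF10A and HT-29 was 8.47-fold, but against the background only a fold of at least 1.35 is left. The SERPINB7 call was lost with a stricter background of 60.6 (99th percentile), on the log2(intensity + 16) scale, and with values under background set to it.

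The remaining members of clade B, SERPINB10, SERPINB11 and SERPINB12, were between 3.02 and 7.17 in all lines. Among 15 measured proteases that intracellular serpins can act on, 1 was higher and 1 lower in MDA-MB-436 relative to MCF10A (median 0.14). In treated HT-29, 2 were higher and 0 lower relative to MCF10A (median 0.26), and the same numbers held against MDA-MB-436 (median 0.24). Beside these stand the all-gene shares of 3.65% and 2.01%, 4.34% and 3.5%, and 4.21% and 4.68%, in the same order. The lysosomal protease gene CTSS was at 388 in treated HT-29, 121 in MDA-MB-436 and 13.2 in MCF10A, and CTSH at 360 in treated HT-29, 255 for MCF10A and 14.5 for MDA-MB-436. CTSV, of the cathepsin L group, was at 102 in MCF10A, 73.5 in MDA-MB-436 and 26.3 in treated HT-29. CASP10, an apoptotic protease gene, was at 180 in treated HT-29, 40.6 in MDA-MB-436 and 10.2 in MCF10A.

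Of the 5 members listed as not inhibiting proteases, SERPINB5 and SERPINH1 were above background. SERPINB5 encodes maspin, a clade B member of normal mammary myoepithelium. Its intensity was 1892 in MCF10A, 95.9 in treated HT-29, under the highest olfactory receptor value of 101, and 6.31 in MDA-MB-436. The 3 lines were thus far apart, with MCF10A 19.7-fold above treated HT-29 and at least 63.2-fold above MDA-MB-436. By measured difference it ranked 1 of the 290 genes that were lower in MDA-MB-436 relative to MCF10A, and SERPINB13 ranked 8; both ranks rest on MDA-MB-436 values under background. Treated HT-29 exceeded MDA-MB-436 by at least 3.21-fold, so this call passed 4-fold by the measured values, at a log2 difference of 3.93, and not with the background as floor, at 1.68.

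SERPINB5 and SERPINB13 were the 2 serpins at least 4-fold above both other lines in MCF10A, as were 0.881% of all genes. Of the 4 measured basal mammary markers, 2 (KRT14 and CDH3) were at least 4-fold lower than in MCF10A in both other lines. The list summed to 8059 in MCF10A, 2903 in treated HT-29 and 1013 in MDA-MB-436. KRT14, a basal keratin gene, was at 3732, 27.1 and 17.6 in the same order. The integrin genes ITGA6 and ITGB4 of the same list were at 1808 and 1281 in MCF10A, 1500 and 1314 in treated HT-29, and 497 and 473 in MDA-MB-436, and neither was counted. The part of basal identity in the serpin levels was not tested.

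SERPINH1 encodes HSP47, a chaperone of the endoplasmic reticulum that binds procollagen. It was at 1332 in MCF10A, 1176 in MDA-MB-436 and 499 in treated HT-29. Treated HT-29 was 2.67-fold and 2.36-fold lower than these, and no comparison passed 4-fold. Mesenchymal markers were lowest in the same line: 2 of 8 were above background in treated HT-29, 7 were in MCF10A and 8 in MDA-MB-436, with summed intensities of 190, 3019 and 4660. Their part in the levels of SERPINH1 and SERPINE2 was not tested. MCF10A and MDA-MB-436 differed by 1.13-fold in SERPINH1, a difference whose sign turned after quantile normalization.

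Collagens and the enzymes that process them, which HSP47 works beside, were also lowest in treated HT-29 for part of the list. Of 25 measured genes, 0 were at least 4-fold higher and 4 lower in treated HT-29 relative to MCF10A (median -0.13), and 0 higher and 6 lower than in MDA-MB-436 (median -1.17). MDA-MB-436 had 2 higher and 1 lower than MCF10A (median 0.20). For all genes the shares higher and lower were 4.34% and 3.5%, 4.21% and 4.68%, and 3.65% and 2.01%, in the same order. CRTAP, a subunit of the collagen prolyl 3-hydroxylase complex, was at 140 in treated HT-29 against 1069 for MCF10A and 1073 for MDA-MB-436. The crosslinking enzyme gene LOX was at 12.7 in treated HT-29, 239 for MCF10A and 70.4 for MDA-MB-436, and COL12A1 at 13.2, 183 and 90.03. LOXL2, a relative of LOX, was at 740 in MDA-MB-436, 98 in MCF10A and 41.6 in treated HT-29. The main fibrillar collagen gene COL1A1 was between 50.9 and 57.2 in all lines, under the highest olfactory receptor value.

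The other 3 were dim everywhere. SERPINF1, which encodes the secreted factor PEDF, was between 12.5 and 18.04. The hormone carrier genes SERPINA6 and SERPINA7, for cortisol and thyroxine binding globulin, did not exceed 9.24 and 5.37. The clade A members SERPINA9 and SERPINA12, which were on no role list, lay between 8.39 and 14.8. In all, the 15 members under background in every line ranged from 2.18 to 27.1, with a median of 8.39, and no fold is given for them.

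The members lie on 10 chromosomes, with 7 on chromosome 18, 6 on chromosome 14 and 2 each on chromosomes 3, 6, 11 and 17. Their order is that of the reference gene table. On chromosome 18 the run from SERPINB5 to SERPINB8 holds 10 serpin genes, of which 7 were measured here. SERPINB5 and SERPINB13, with SERPINB12 between them, were highest in MCF10A, SERPINB7 further along was above background in MCF10A alone, and SERPINB8 at the far end was above background in all lines. SERPINB12, SERPINB11 and SERPINB10, which sit among these, did not exceed 7.17.

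Beyond the ends of the chromosome 18 run, 4 of the 6 nearest measured genes were above background in all lines or in 2 of them. KDSR was at 649 in MCF10A, 595 in treated HT-29 and 294 in MDA-MB-436, and VPS4B at 365, 348 and 194. SERPINB8 had the same order, and TMX3 past it was also lowest in MDA-MB-436, at 89.8 against 218 in MCF10A and 128 in treated HT-29. For KDSR, VPS4B, SERPINB8 and TMX3, MCF10A exceeded MDA-MB-436 by 1.88-fold to 2.43-fold, and none passed 4-fold. BCL2, the apoptosis inhibitor gene, was at 36.5 in MCF10A, 31.8 in MDA-MB-436 and 14.3 in treated HT-29.

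On chromosome 6, the 3 nearest measured genes before SERPINB1 all had its order across lines in the values as deposited. FOXQ1, a forkhead transcription factor gene, was at 329 in treated HT-29, 55.2 for MCF10A and 36.5 for MDA-MB-436. GMDS, an enzyme of fucose synthesis, was at 821 in treated HT-29, 281 for MCF10A and 63.4 for MDA-MB-436. WRNIP1, the nearest, was at 270, 258 and 177, so its upper values lay close together. On the other side of SERPINB9, BPHL was at 110 in treated HT-29, 119 for MCF10A and 158 for MDA-MB-436. TUBB2B was between 98.5 and 104, and PXDC1 was at 787 in treated HT-29, 302 in MDA-MB-436 and 239 in MCF10A. On chromosome 14 the 6 measured serpins from SERPINA10 to SERPINA3 included a single one above background, SERPINA3 at the far end.

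**Figure D3:**
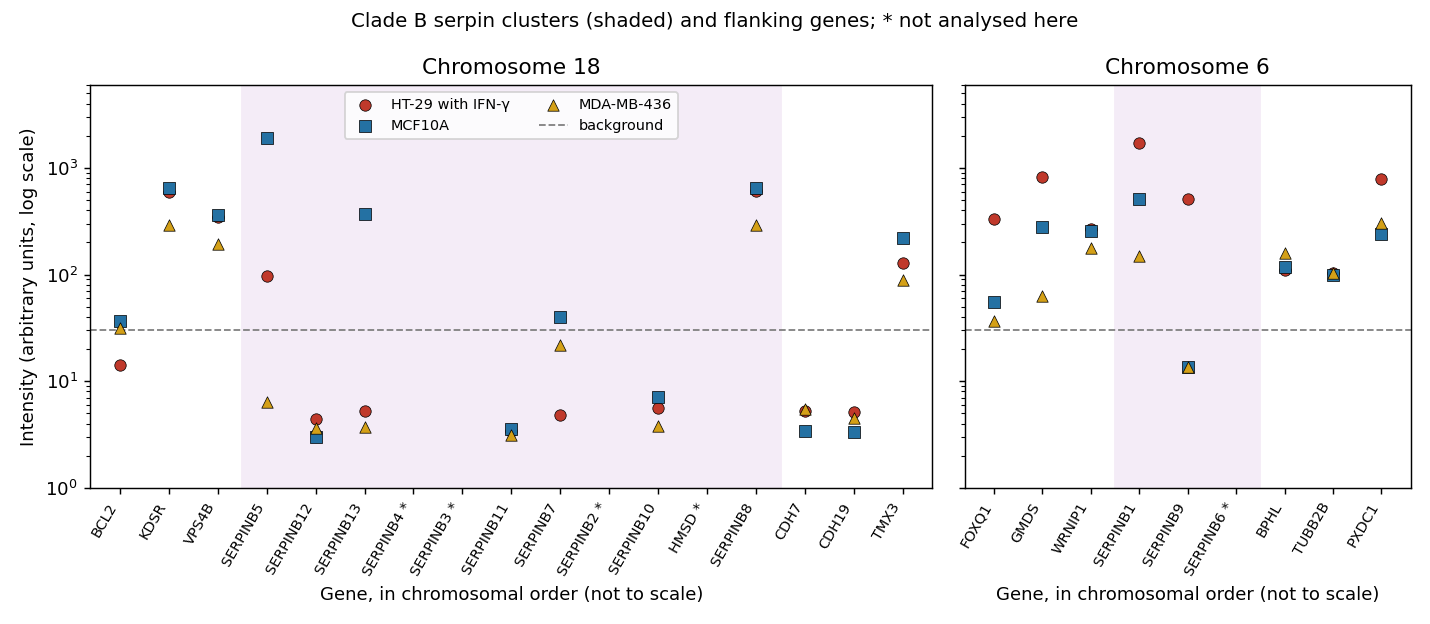
Intensity (arbitrary units, log axis) in the 3 lines, 1 array each, of the clade B serpin runs on chromosomes 18 and 6 (shaded) and of the 3 nearest measured genes on either side, in chromosomal order and not to scale; an asterisk marks a gene that was not analysed here and the dashed line is the background of 29.9. Lines are to be compared within a gene: SERPINB5 and SERPINB13 are highest in MCF10A, and SERPINB1 and SERPINB9 in treated HT-29, as are FOXQ1, GMDS and PXDC1 among the genes that flank them.

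Protease inhibitors of other families gave a similar range of single differences. Of 27 measured, 3 were at least 4-fold higher and 7 lower in MDA-MB-436 relative to MCF10A (median -0.44). Treated HT-29 had 3 higher and 5 lower against MCF10A (median -0.20), and 5 higher and 3 lower against MDA-MB-436 (median -0.02). The all-gene shares higher and lower were 3.65% and 2.01%, 4.34% and 3.5%, and 4.21% and 4.68%, in the same order. CSTA, a cystatin of stratified epithelium, had the pattern of SERPINB13, at 961 in MCF10A, 17.4 in treated HT-29 and 16 in MDA-MB-436. SLPI, an elastase inhibitor of mucosal surfaces, was at 3193 in MCF10A, 660 in treated HT-29 and 687 in MDA-MB-436. TIMP3, a metalloprotease inhibitor gene, was at 1354 in MCF10A, 143 in MDA-MB-436 and 20.5 in treated HT-29.

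The Kunitz-type inhibitors of membrane serine proteases were lowest in MDA-MB-436, where SERPINE2 was highest. SPINT1 was at 1297 in treated HT-29, 493 for MCF10A and 39.6 for MDA-MB-436, and SPINT2 at 1229, 807 and 21.7. TFPI2, a Kunitz-type inhibitor of the matrix, was instead at 1018 in MDA-MB-436, 20.7 in MCF10A and 11.5 in treated HT-29. SPINK1, a trypsin inhibitor, was at 553 in treated HT-29, 34.7 in MDA-MB-436 and 6.53 in MCF10A.

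Of 11 measured membrane serine proteases, 1 was higher and 2 lower in MDA-MB-436 relative to MCF10A (median 0.24). Treated HT-29 had 5 higher and 0 lower against MCF10A (median 0.92), and the same counts against MDA-MB-436 (median 0.80). Shares of all genes higher and lower were 3.65% and 2.01%, 4.34% and 3.5%, and 4.21% and 4.68%, in the same order. The matriptase gene ST14 was at 1254 in treated HT-29, 663 for MCF10A and 17.9 for MDA-MB-436, and the prostasin gene PRSS8 at 1355, 152 and 21. TMPRSS4 was at 723 and TMPRSS2 at 144 in treated HT-29, and both were under background in the mammary lines.

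**Figure D4:**
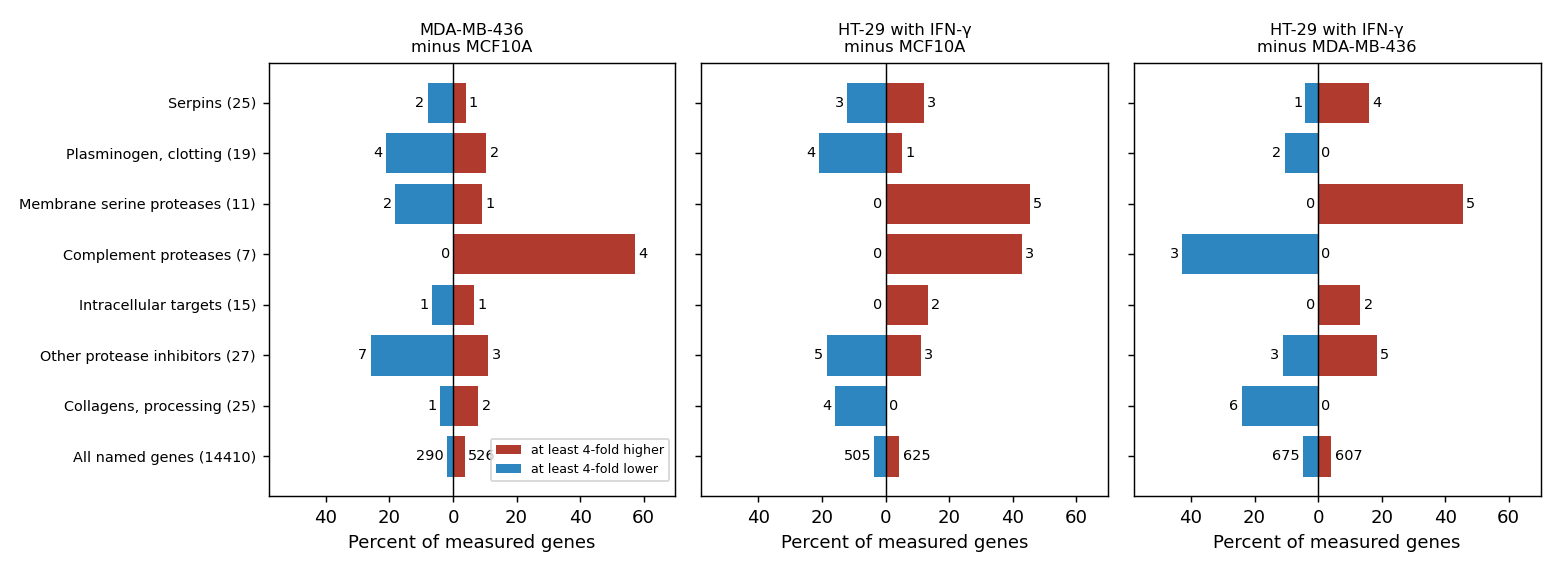
Percent of the measured genes of each list at least 4-fold higher (red, to the right) or lower (blue, to the left) in the 3 comparisons, with counts beside the bars and the number measured in brackets. The serpins have between 1 and 4 genes on each side, and the bottom row gives all 14410 named genes.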

How the data were processed

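Exon array data of 3 cell lines were analysed, 1 array each. The deposited values are linear intensity values, 1 per array for each of 18708 transcript clusters. The submitters' processing notes list hg19. How the authors summarised, background-corrected and normalized the arrays is not given in the sources used here, and the columns do not share one distribution. Clusters were named from the platform annotation: 14733 had a single symbol (14705 matched by identifier to RefSeq, GRCh38.p14, which served for names and gene order), 2875 several and 1100 none here. The brightest cluster by mean over arrays stood for a gene. Intensities were log2 transformed as deposited. No test was made. For other genes, up to 4 per list with the largest called difference were named, plus 9 set singly where measured. FURIN, COL1A1 and some cell type markers were named outside that rule. Flanking genes were chosen after their values were seen. Members and lists were chosen with earlier results of these data known. The alternatives were quantile normalization, median centring, other filters, folds of 2 and 8, the median over clusters, a floor and a pseudocount of 16. The counting step was tested on simulated data. Protein sequences were not used here. Some genes were not analysed here. Scripts ran under Python 3.11.15 with pandas 2.3.3, numpy 2.4.6 and, for plots, matplotlib 3.10.9.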

Additional observations from a re-analysis of the deposited data

How the results depend on the processing

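No serpin counted past 4-fold changed direction under quantile normalization or median centring; the other alternatives could change a call but not a sign. Without the filter on dim genes, 2 serpins were lower in treated HT-29 relative to MDA-MB-436, beside 714 of all genes (675 with the filter). At 2-fold, 2 serpins were higher and 4 lower in MDA-MB-436 relative to MCF10A. Over all genes these counts also rose, to 1262 and 1259 from 526 and 290 at 4-fold. At 2-fold, 2 serpins were lower in treated HT-29 relative to MDA-MB-436, beside 1581 of all genes. At 8-fold this last serpin count was 0, beside 331 of all genes, and SERPINA3 was no longer called. Median centring moved the median of all genes by -0.11 on the log2 scale from MCF10A to MDA-MB-436, and quantile normalization moved it by -0.12 from MCF10A to HT-29; the 4-fold serpin counts were the same under both. Signal over background limits the rest: 15 of 25 members have no readable order. No paired analysis was possible because each group has 1 array.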

Other observations

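The pseudogene SERPINB9P1, which the rule for members does not take, was at 66.6 in treated HT-29, 24.7 for MCF10A and 19.2 for MDA-MB-436. Like SERPINB9, it was above background in that line alone, though under the highest olfactory receptor value of 101. The pseudogene SERPINA13P was under background in all lines, at 25.1, 14.8 and 13.4.

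The genes next to SERPING1 on chromosome 11 differed in their levels. UBE2L6, which encodes a conjugating enzyme for the ubiquitin-like protein ISG15, was at 2207 in treated HT-29, 78.2 for MCF10A and 801 for MDA-MB-436. On the other side, YPEL4 was between 14.5 and 21.1. CLP1 was at 179 in MCF10A, 122 in treated HT-29 and 109 in MDA-MB-436, and ZDHHC5 at 755, 984 and 648 in the same order. SLC43A1, an amino acid transporter gene and the third measured gene before SERPING1, was at 1198 in treated HT-29, 46.2 for MCF10A and 76.1 for MDA-MB-436. TIMM10, which lies between SLC43A1 and UBE2L6, ranged from 268 to 289. On chromosome 14, IFI27, an interferon-induced gene before the clade A run, was at 1072 in treated HT-29, 138 in MDA-MB-436 and 22.3 in MCF10A. Nearer to that run, IFI27L2 was at 262 in MDA-MB-436, 179 in treated HT-29 and 166 in MCF10A. PPP4R4, nearer still, was at 36.6, 7.29 and 6.44 in the same order. Past SERPINA3, GSC was under background in all lines, DICER1 was between 216 and 319, and CLMN between 195 and 308. Past SERPINE2 on chromosome 2, DOCK10 was at 108 in MDA-MB-436 and at 11.1 and 10.2 in treated HT-29 and MCF10A. Nearer to SERPINE2 on that side, FAM124B was under background in all lines. CUL3, also nearer, was at 643 in MCF10A, 444 in MDA-MB-436 and 436 in treated HT-29. On the other side, MRPL44, WDFY1 and AP1S3 were not highest in MDA-MB-436.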
